A study of Mus musculus with 6 samples.

Results

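The genes of neutrophil granules and neutrophil maturation were examined as a group of 33 genes in the spleens of mice with a disease resembling primary Sjögren's syndrome (pSS) and of healthy controls. The 33 genes were listed by name for what their products are known to do in neutrophils. Earlier results of these data were known when the list was made, so shares of the 33 genes given below are not those of an independent list. All 33 were found by symbol among the 47729 genes of the count table. By role, 7 belong to the earliest stage (5 products of primary granules or their precursor cells and 2 transcription factors), 10 to specific granules, 12 to gelatinase granules and late maturation, and 4 to the NADPH oxidase. RNA-seq was performed on whole spleens of 3 NOD.B10 females (NOD.B10Sn-H2b/J, a strain that develops pSS) and 3 BL/10 females (C57BL/10, the control strain). The mice were untreated, with 1 mouse per library. The sequencing compared gene expression between diseased mice and controls meant to be of equal age and sex. The libraries held 16476126, 16257041 and 17160323 counts in NOD.B10 replicates 1, 2 and 3, and 18298451, 15662712 and 17935130 counts in BL/10 replicates 1, 2 and 3.

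The records did not agree on the strain or the age of the libraries. The strain used here is the one in the sample descriptions and in the column names of the table. The titles and the strain fields give each of the 6 libraries to the other strain, and every direction given below would be reversed under them. The index in the column name of BL/10 replicate 3 differs from that in its description, so its match rests on its library number and strain. All 6 mice were to be 26 weeks old by the study's design, but the age field gives 36 weeks for BL/10 replicates 2 and 3. Each of 8 genes used as spleen markers had at least 47 counts in every library, and genes of the pancreas in some BL/10 libraries are described below.

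Neutrophils arise from myeloid progenitors in the bone marrow and, in mice, also in the red pulp of the spleen. Their granules are filled in sequence as the cells mature: proteases and myeloperoxidase of primary granules are made by promyelocytes, the antimicrobial proteins of specific granules by myelocytes and metamyelocytes, and gelatinase last. The transcripts of the granule proteins are largely shut off in mature cells, which instead carry receptors for growth factors, chemokines and microbial products and an oxidase that makes superoxide, so the transcripts present in a tissue reflect the stages found there.

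Levels are given as normalized CPM, the counts of a gene in proportion to the size of its library, scaled between libraries by the TMM method. BL/10 was the reference in edgeR's quasi-likelihood test of the strains, so a negative log2 fold change is a lower level in NOD.B10, and p-values were adjusted over the 15330 genes tested. A gene is called where its adjusted p is under 0.05. Each of the 33 genes was tested, and each had at least 10 counts in every library. The floor of detection was set at 3 counts, which is 0.164 to 0.192 CPM depending on the library, and it covers counting error only.

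Most of the neutrophil genes were lower in NOD.B10 spleens. Of the 33 genes, 24 were called lower and 0 higher, where 8.22% of all tested genes were called lower and 9.11% higher. At an unadjusted p under 0.05, 27 were lower and 1 was higher. The share of all tested genes at that threshold was not computed, so counts at an unadjusted p have no background here. The median log2 fold change of the 33 genes was -1.61, and that of all tested genes was 0.00. For 26 of the 33 genes all NOD.B10 libraries lay below all BL/10 libraries, where this held for 17.5% of all tested genes, and for 1 gene, Trem1, they lay above, as for 20.5% of all tested genes. Without any difference, 10% of genes would be separated in 1 or the other direction by chance. With DESeq2, 26 of the 33 were called lower (8.74% of all genes with an adjusted p in that test) and 1 higher. Of the 19002 genes with an adjusted p in that test, 3226 were called, 1661 of them lower.

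Summed over the 33 genes, the level was 3840, 4017 and 3777 CPM in the NOD.B10 libraries and 8393, 16378 and 14308 CPM in the BL/10 libraries. The strains did not overlap, the NOD.B10 libraries were close to each other, and BL/10 replicate 1 lay between them and the remaining BL/10 libraries, which are those labelled 36 weeks. The 33 genes took 0.39%, 0.402% and 0.392% of all counts in NOD.B10 against 0.845%, 1.56% and 1.4% in BL/10. In whole spleens, fewer neutrophils and less RNA per neutrophil cannot be told apart. Age and strain cannot be fully told apart either, because the libraries labelled 36 weeks are all BL/10. The BL/10 library left without them, replicate 1, also had the most counts of pancreas genes (1.65%, against 0.236% and 0.0119% in replicates 2 and 3). Without the libraries labelled 36 weeks, this 1 remaining BL/10 library was assumed to vary as the NOD.B10 libraries do. In that comparison 16 of the 33 genes were called lower (3.36% of all tested genes) and their median log2 fold change was -0.83.

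**Figure D1:**
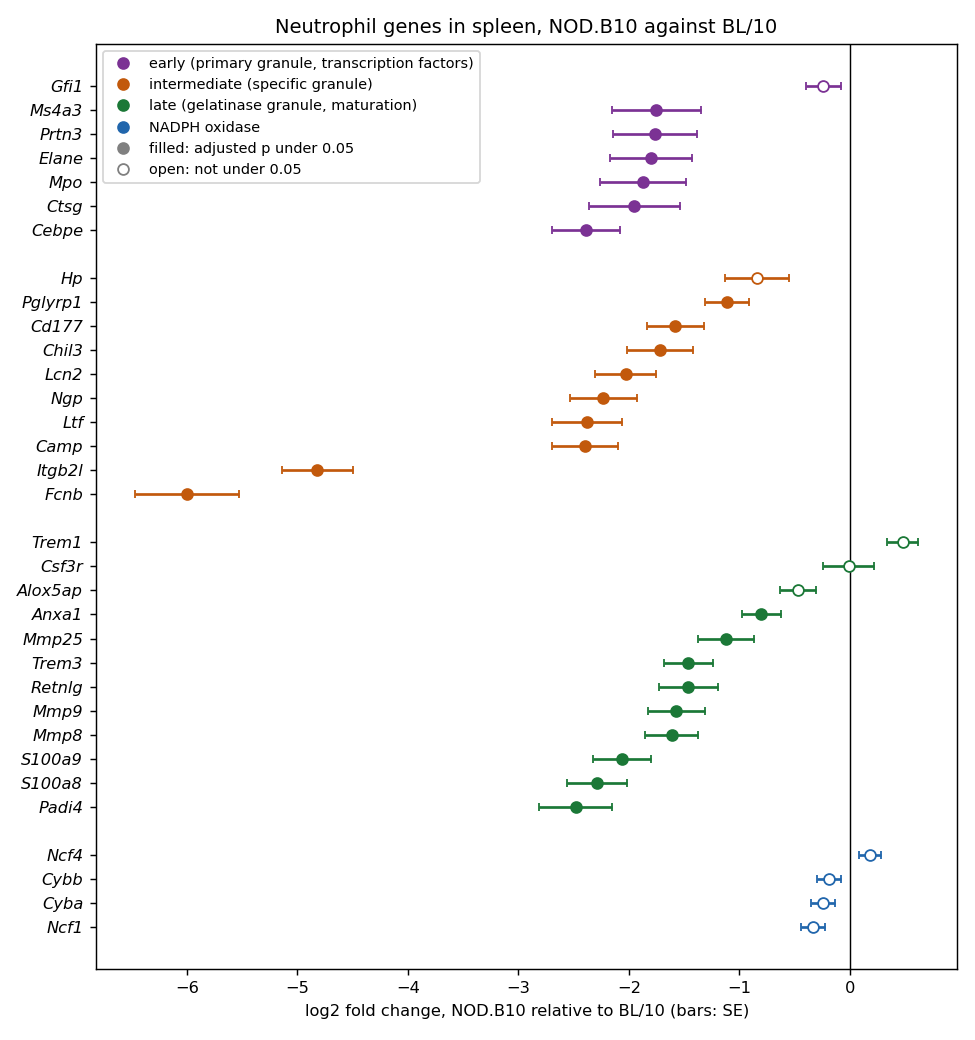
Log2 fold change (NOD.B10 relative to BL/10, horizontal axis) of each of the 33 neutrophil genes with its SE, by stage, from edgeR's quasi-likelihood test on 3 libraries per strain. Filled points mark the 24 genes with an adjusted p under 0.05, all of them to the left of 0, with Fcnb (-6.00) and Itgb2l (-4.82) farthest from it.

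Of the earliest genes, all 5 that mark primary granules and the cells that make them were lower in NOD.B10. Mpo encodes myeloperoxidase, which makes hypochlorous acid (chromosome 11, 87793581 to 87804413, GRCm38). Its level was 40.8, 56.9 and 67.7 CPM in NOD.B10 and 96.2, 303 and 204 CPM in BL/10. The NOD.B10 libraries were all below the BL/10 libraries, although BL/10 replicate 1 was closer to them than to BL/10 replicate 2. The level of Mpo fell by 1.87 on the log2 scale (SE 0.39, adjusted p = 0.0165), which is 3.65-fold.

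Elane encodes neutrophil elastase (chromosome 10, 79886312 to 79888216). It had 20, 33.7 and 30.3 CPM in NOD.B10 and 49, 139 and 105 CPM in BL/10, again without overlap. Its log2 fold change was -1.80 (SE 0.37, adjusted p = 0.0154). Prtn3, the gene of proteinase 3, lies 3.14 kb from Elane with no other gene of the table between them, and its log2 fold change was -1.76 (SE 0.38, adjusted p = 0.0185). Part of its exons overlaps those of Plppr3, and reads shared by overlapping genes were not counted. Cathepsin G (Ctsg) and Ms4a3, a membrane protein of granulocyte-monocyte progenitors, had log2 fold changes of -1.95 and -1.75 (SE 0.41 and 0.40). The 5 genes thus differed from each other by less than the SE of any of them.

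The calls of these 5 genes depended on single libraries. Without NOD.B10 replicate 1 none of the 5 was called (adjusted p from 0.0644 to 0.094), nor without NOD.B10 replicate 3 (from 0.0511 to 0.0671). Without BL/10 replicate 3 only Ctsg was called, and the other 4 had an adjusted p from 0.0502 to 0.0596. Ms4a3 also lost its call without NOD.B10 replicate 2 (adjusted p = 0.0648) and without BL/10 replicate 2 (0.0509). The log2 fold changes in these fits stayed between -2.09 and -1.27. When the libraries labelled 36 weeks were left out, the log2 fold changes of the 5 genes were between -1.02 (Ctsg) and -0.65 (Prtn3), and none was called, with adjusted p from 0.0784 to 0.187. Over the 15 alternatives the adjusted p of Mpo was between 0.00112 and 0.122.

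The 2 transcription factors of the early stage differed from each other. Cebpe encodes C/EBP epsilon, which is needed for specific granule genes and for the step from promyelocyte to myelocyte (chromosome 14, 54710363 to 54712174). Its level was 3.11, 5.04 and 4.33 CPM in NOD.B10 and 12.9, 25.2 and 27.4 CPM in BL/10. The lowest BL/10 library was thus above the highest NOD.B10 library, and the log2 fold change was -2.39 (SE 0.31, adjusted p = 0.00245). Gfi1, a repressor that directs progenitors toward granulocytes and is also made by lymphocytes and stem cells, had 6.94, 7.62 and 9.22 CPM in NOD.B10 and 7.98, 9.79 and 10.3 CPM in BL/10. These ranges overlapped (log2 fold change -0.24, SE 0.16, adjusted p = 0.34).

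The genes of specific granules were lower in NOD.B10 for 9 of 10, and the median of the 10 log2 fold changes was -2.13. Camp encodes the cathelicidin peptide precursor, an antimicrobial protein (chromosome 9, 109847379 to 109849617). Its level was 97.7, 128 and 139 CPM in NOD.B10 and 373, 811 and 737 CPM in BL/10. All NOD.B10 libraries were far below the lowest BL/10 library, and the fold change was 5.27 (log2 fold change -2.40, SE 0.30, adjusted p = 0.00188).

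Ltf encodes lactoferrin, which binds iron (chromosome 9, 111019271 to 111042767), and Ngp, neutrophilic granule protein, lies on the same chromosome (110419747 to 110423012). Ltf had 110, 128 and 165 CPM in NOD.B10 and 390, 892 and 815 CPM in BL/10. Ngp had 202, 247 and 284 CPM in NOD.B10 and 646, 1448 and 1342 CPM in BL/10. Both showed the same order of libraries as Camp, with BL/10 replicate 1 the lowest of its strain. Their log2 fold changes were -2.38 and -2.23 (SE 0.32 and 0.30, adjusted p = 0.00261 and 0.00291).

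Of the other specific granule genes, Lcn2, whose product lipocalin 2 binds bacterial siderophores, had a log2 fold change of -2.03 (SE 0.28, adjusted p = 0.00322). Chil3, a chitinase-like protein also made by macrophages, had one of -1.72 (SE 0.30), which is uncertain because its family holds near copies that can share reads. Cd177, a surface protein of neutrophils, fell by 1.58 (SE 0.26), and Pglyrp1, a peptidoglycan recognition protein, by 1.11 (SE 0.20), both on the log2 scale. The adjusted p of these 3 genes was between 0.00657 and 0.00865. Hp, which encodes haptoglobin and is made above all by liver, had 65.8, 53.6 and 38.9 CPM in NOD.B10 and 56.9, 123 and 103 CPM in BL/10. NOD.B10 replicate 1 was above BL/10 replicate 1, and the gene was not called (log2 fold change -0.84, SE 0.29, adjusted p = 0.0871). It was called lower in 3 of the 15 alternatives, over which its adjusted p was between 0.00918 and 0.858, and its log2 fold change was -0.11 without the libraries labelled 36 weeks.

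The other 2 specific granule genes were nearly absent in NOD.B10. Fcnb encodes ficolin B, a lectin of myeloid cells that binds microbial sugars and can start the lectin pathway of complement (chromosome 2, 28076378 to 28084885). It had 10, 13 and 14 counts in the NOD.B10 libraries and 442, 1024 and 865 counts in the BL/10 libraries. These are 0.598, 0.798 and 0.787 CPM against 24, 68.7 and 49.2 CPM. Every NOD.B10 library was above the floor of detection but far below every BL/10 library. The log2 fold change was -6.00 (SE 0.47, adjusted p = 0.000228), a 64.2-fold lower level in NOD.B10, and it was between -6.33 and -5.03 over the 15 alternatives.

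Itgb2l encodes a beta integrin chain related to the beta chain of the leukocyte integrins (chromosome 16, 96422288 to 96443619). The NOD.B10 libraries held 20, 24 and 26 counts of it, and the BL/10 libraries 445, 700 and 820. In normalized CPM these were 1.2, 1.47 and 1.46 against 24.2, 46.9 and 46.6. The strains were again far apart, with a log2 fold change of -4.82 (SE 0.32, adjusted p = 0.000101), or 28.3-fold. The spread between NOD.B10 libraries was small for both genes, with SDs of 0.112 CPM for Fcnb and 0.157 CPM for Itgb2l (n = 3).

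The difference in Fcnb and Itgb2l was larger than that of the granule genes around them in development. For every 100 counts of Ltf there were 0.542, 0.623 and 0.477 counts of Fcnb in the NOD.B10 libraries and 6.15, 7.7 and 6.03 in the BL/10 libraries. For Itgb2l they were 1.08, 1.15 and 0.886 in NOD.B10 against 6.19, 5.26 and 5.72 in BL/10. Within a strain the ratios varied little, also in BL/10 replicate 1, while the strains did not overlap. Whether the same cells made the transcripts of each pair was not tested. The ratios were chosen after the values had been seen, and their difference between strains was not tested.

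**Figure D2:**
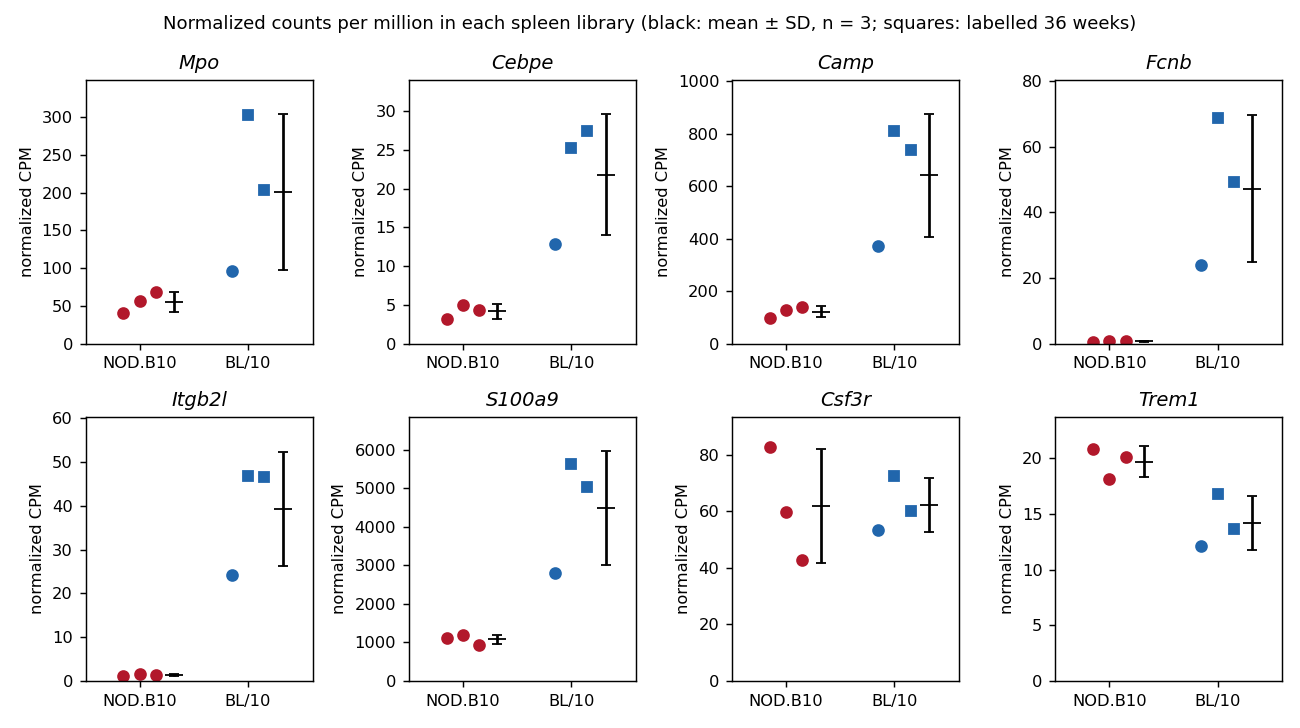
Normalized CPM (vertical axes, each starting at 0) of 8 neutrophil genes in the 3 NOD.B10 and 3 BL/10 spleen libraries, with the mean ± SD of each strain in black and squares for libraries labelled 36 weeks. Mpo, Cebpe, Camp, Fcnb, Itgb2l and S100a9 were lower in every NOD.B10 library than in any BL/10 library, Csf3r overlapped, and Trem1 lay higher in NOD.B10 with an adjusted p of 0.0537.

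Among the genes of gelatinase granules and late maturation, 9 of 12 were called lower, and the median of the 12 log2 fold changes was -1.46. S100a8 and S100a9 encode the 2 chains of calprotectin, a protein of the neutrophil cytosol that binds zinc, manganese and calcium (chromosome 3, 90668978 to 90670035 and 90692632 to 90695721). S100a9 had 1109, 1186 and 937 CPM in NOD.B10 and 2810, 5633 and 5029 CPM in BL/10. S100a8 had 526, 607 and 457 CPM in NOD.B10 and 1630, 3352 and 2770 CPM in BL/10. The lowest BL/10 library was above every NOD.B10 library for both genes. The log2 fold changes of S100a8 and S100a9 were -2.29 and -2.06 (SE 0.27 and 0.26, adjusted p = 0.00152 and 0.0022). Counts of the 2 genes made up 42.6%, 44.6% and 36.9% of the counts of all 33 genes in NOD.B10 against 52.9%, 54.9% and 54.5% in BL/10.

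Padi4, whose product converts arginine of histones to citrulline when neutrophils release their chromatin (chromosome 4, 140745865 to 140774236), had 2.27, 2.83 and 4.33 CPM in NOD.B10 and 11, 20.1 and 21.8 CPM in BL/10. Its libraries did not overlap, and its log2 fold change of -2.48 (SE 0.33, adjusted p = 0.00246) was the most negative of the late genes. The matrix metalloproteinases Mmp8 (neutrophil collagenase) and Mmp9 (gelatinase B) had log2 fold changes of -1.61 and -1.57 (SE 0.24 and 0.26, adjusted p = 0.0046 and 0.00614). Retnlg, a resistin-like protein of mature neutrophils, and Trem3, a receptor of the TREM family, each fell by 1.46 (SE 0.27 and 0.22). The smallest differences called in this group were those of Mmp25, a metalloproteinase held at the membrane (-1.12, SE 0.25), and of Anxa1, annexin A1, which limits neutrophil recruitment and is made by many cell types (-0.80, SE 0.18). Mmp25 was not called when any 1 library other than BL/10 replicate 1 was left out (log2 fold change from -1.17 to -0.94, adjusted p from 0.0562 to 0.0808). Anxa1 was not called without NOD.B10 replicate 1, 2 or 3 (-0.85, -0.77 and -0.78, adjusted p from 0.0649 to 0.0825). Without the libraries labelled 36 weeks, Mmp25, Anxa1 and Retnlg had log2 fold changes of -0.48, -0.44 and -0.90 and were not called (adjusted p from 0.0985 to 0.243).

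The 3 late genes that were not called include the receptor for the main growth factor of neutrophils. Csf3r encodes the receptor for G-CSF, which is kept throughout maturation (chromosome 4, 126024550 to 126044440). It had 82.7, 59.8 and 42.6 CPM in NOD.B10 and 53.5, 72.4 and 60.2 CPM in BL/10. The NOD.B10 libraries spanned the whole range of the BL/10 libraries, and the means were 61.7 ± 20.1 and 62 ± 9.53 CPM (SD, n = 3). The log2 fold change was -0.01 (SE 0.23, adjusted p = 0.987), and its sign changed with the normalization and with the libraries used. Alox5ap, which presents arachidonic acid to 5-lipoxygenase, had 41.1, 38 and 34.1 CPM in NOD.B10 and 40.5, 55.7 and 60.7 CPM in BL/10. The ranges met at BL/10 replicate 1 (log2 fold change -0.47, SE 0.16, adjusted p = 0.077), and the gene was called lower in 2 of the 15 alternatives, with an adjusted p between 0.00779 and 0.739.

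Trem1, a receptor that amplifies inflammatory signals in neutrophils and monocytes, had the opposite sign (chromosome 17, 48232768 to 48246924). It had 20.8, 18.1 and 20.1 CPM in NOD.B10 and 12.1, 16.8 and 13.6 CPM in BL/10. All NOD.B10 libraries were above the BL/10 libraries, but the log2 fold change of 0.48 (SE 0.14) was not called, with an adjusted p of 0.0537. It was called in 6 of the 15 alternatives, over which its adjusted p was between 0.0284 and 0.171. Trem3, called lower, starts 0.853 kb beyond the end of Trem1 with no other gene of the table between them.

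The 4 subunits of the NADPH oxidase, which are also made by monocytes, macrophages and B cells, were close to equal. Cybb and Cyba encode the chains of cytochrome b558 in the membrane, and Ncf1 and Ncf4 encode subunits that join it from the cytosol. Cybb had 417, 369 and 407 CPM in NOD.B10 and 464, 483 and 419 CPM in BL/10. Its strains were separate but nearly touched, with a log2 fold change of -0.19 (SE 0.11, adjusted p = 0.241). The log2 fold changes of Ncf1, Cyba and Ncf4 were -0.33, -0.24 and 0.18 (SE 0.11, 0.11 and 0.10), and their adjusted p was 0.0701, 0.179 and 0.248. Of these 4 genes, edgeR called 0, 1 had an unadjusted p under 0.05, DESeq2 called 1 (Ncf1) and limma-voom called 0. Exons of Ncf1 overlap those of Gtf2ird2, so its count is uncertain.

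Early and late genes were then set against each other in each library. The level of each gene was divided by its mean over the 6 libraries, and the median of the log2 values was taken over the genes of a stage. For the 7 early genes this median was -1.65, -1.15 and -0.99 in NOD.B10 and -0.36, 1.22 and 0.67 in BL/10. For the 12 late genes it was -0.70, -0.81 and -1.03 in NOD.B10 against -0.02, 0.81 and 0.74 in BL/10. Every NOD.B10 library was below every BL/10 library at both stages, while BL/10 replicate 1 was the lowest of its strain. The early median minus the late median was -0.95, -0.34 and 0.04 in NOD.B10 against -0.34, 0.41 and -0.07 in BL/10. The strains overlapped in this difference, so these libraries do not separate the strains by the balance of early and late genes. The median log2 fold changes were -1.80 for the early genes and -1.46 for the late genes, and without the libraries labelled 36 weeks they were -0.80 and -0.89.

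**Figure D3:**
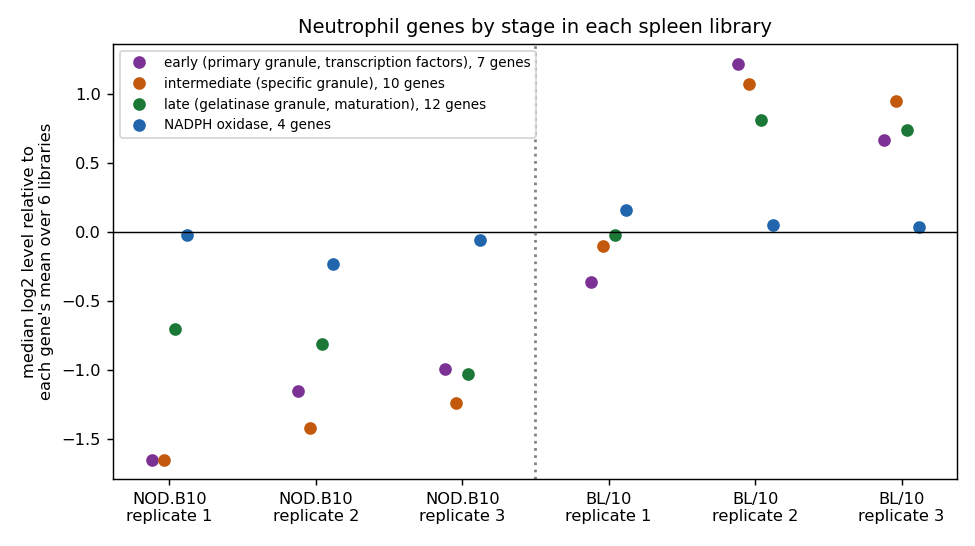
Median over the genes of each stage of the log2 level relative to each gene's mean over the 6 libraries (vertical axis), for each spleen library (horizontal axis). The early, intermediate and late medians of the NOD.B10 libraries lie between -1.65 and -0.70 and those of the BL/10 libraries between -0.36 and 1.22, while the oxidase medians stay between -0.23 and 0.16.

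Ratios of single genes within a library gave the same comparison without normalization. There were 2.71, 2.25 and 2.44 counts of Ltf per count of Mpo in NOD.B10 against 4.06, 2.94 and 3.98 in BL/10, so the specific granule gene was lower relative to the primary granule gene in every NOD.B10 library. Over all genes of the stages this did not hold, since the intermediate median minus the early median was 0.00, -0.27 and -0.25 in NOD.B10 against 0.26, -0.15 and 0.28 in BL/10, which overlapped. For S100a9 and Mpo the ratios were 27.2, 20.8 and 13.9 in NOD.B10 and 29.2, 18.6 and 24.6 in BL/10, which overlapped. Csf3r and Mmp9 were both listed as late, although Csf3r is kept throughout maturation. Their ratios were 2.59, 2.24 and 1.81 in NOD.B10 and 1.06, 0.742 and 0.621 in BL/10. Csf3r was thus higher relative to Mmp9 in every NOD.B10 library. Pairs from 1 stage could separate the strains too. Counts of Ngp per count of Camp were 2.07, 1.94 and 2.05 in NOD.B10 and 1.73, 1.79 and 1.82 in BL/10. For S100a8 and S100a9 they were 0.475, 0.512 and 0.487 against 0.58, 0.595 and 0.551. For Prtn3 and Elane the strains overlapped. A separated ratio was thus not particular to pairs from different stages. The pairs were chosen after the values had been seen, and these differences were not tested.

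Per length of exon, the 33 genes covered a wide range of levels, given here as RPKM (normalized CPM per kb). In BL/10 the highest mean levels were those of S100a9 (8603 RPKM), S100a8 (3723), Ngp (937) and Camp (845). In NOD.B10 S100a9 (2064 RPKM) and S100a8 (764) were also highest, followed by the oxidase gene Cyba (268) and then Ngp (200) and Camp (160). The lowest mean levels in NOD.B10 were those of Itgb2l (0.469 RPKM), Fcnb (0.543) and Padi4 (0.65), and in BL/10 that of Gfi1 (2.88). Fcnb reached 35.3 RPKM in BL/10, and its place among the 33 genes therefore differed between the strains.

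Other genes of the neutrophil program were taken from a second list of 52 genes, of which 46 were tested. Of these, 13 were called lower and 0 higher in NOD.B10, where 8.22% of all tested genes were called lower and 9.11% higher. At an unadjusted p under 0.05, 20 were lower and 2 higher. DESeq2 called 16 lower and 0 higher, where it called 8.74% of all genes with an adjusted p lower. With limma-voom 14 were called lower and 0 higher, and 3344 of all 15330 tested genes in either direction. The median log2 fold change of the 46 genes was -0.29. The summed level of the list was 7427, 6786 and 6790 CPM in NOD.B10 against 6844, 6932 and 6284 CPM in BL/10, which overlapped, with Lyz2 making up much of it. Ly6g, the surface antigen that marks mouse neutrophils, had 5.62, 7.31 and 8.99 CPM in NOD.B10 and 13.1, 29 and 26.7 CPM in BL/10. It was lower in all NOD.B10 libraries (log2 fold change -1.64, SE 0.31, adjusted p = 0.0115), and its family has near copies that can share reads. Cxcr2, the chemokine receptor by which mature neutrophils leave the marrow, had 72.9, 55.5 and 38.1 CPM in NOD.B10 and 32.9, 37.4 and 41.1 CPM in BL/10. These overlapped (log2 fold change 0.58, SE 0.22, adjusted p = 0.106).

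Besides Ly6g, the largest of the called differences were those of Wfdc21 (-2.11), the serine protease Prss57 of primary granules (-2.08), the leukotriene B4 receptor Ltb4r1 (-1.73), Alox5, which encodes 5-lipoxygenase (-1.70), Ceacam10 (-1.61) and Ifitm6 (-1.42). The transcription factor Myb of progenitors had a log2 fold change of -1.07, the integrin chain Itgam and the histidine decarboxylase Hdc each -0.95, the hexokinase Hk3 -0.86 and Mcemp1 -0.85. The last called gene, G0s2, an inhibitor of lipolysis, had a log2 fold change of -0.71 and is named after its value was seen. Wfdc21, Ifitm6 and Alox5 were called in all 15 alternatives. Itgam, Hdc and Hk3 were called in 9 of 15, and their adjusted p reached 0.2, 0.483 and 0.321. The counts of Hk3 and Prss57 are uncertain because their exons overlap those of Unc5a and Fstl3. Itgam kept its call only without BL/10 replicate 1 when single libraries were left out, and Hdc and Hk3 only without that library or without NOD.B10 replicate 1. Ly6g and Prss57 lost their calls without NOD.B10 replicate 1, and Mcemp1 without NOD.B10 replicate 3. Without the libraries labelled 36 weeks, 10 of the 13 were not called, with log2 fold changes between -1.38 (Ceacam10) and -0.38 (Hdc). Cebpa, the factor that starts the granulocyte program, was not called (log2 fold change -0.26, SE 0.11, adjusted p = 0.127). Lyz2, the lysozyme gene shared with macrophages and the most abundant of the list, had 4012, 3771 and 3580 CPM in NOD.B10 and 3375, 3321 and 2758 CPM in BL/10. It was not called (log2 fold change 0.27, SE 0.14, adjusted p = 0.211). The 6 genes not tested included Stfa1, a stefin of neutrophils picked out after its values were seen, which had 0 counts in each NOD.B10 library against 8, 10 and 10 in the BL/10 libraries. Of the same family, Stfa2 (3, 5 and 3 counts against 1, 1 and 0) and BC100530 (5, 4 and 5 against 0, 1 and 1) had the opposite order of strains. Stefin genes have near copies, and their counts are uncertain.

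Of 22 genes of signals that make or move neutrophils, 14 were tested. Of these, 1 was called lower (7.14%) and 4 higher, where 8.22% of all tested genes were called lower and 9.11% higher. Socs3, the feedback inhibitor of STAT3 that restrains G-CSF and IL-6 signaling, had 49.5, 45.8 and 37.8 CPM in NOD.B10 and 23.8, 22.6 and 19.9 CPM in BL/10. It was higher in all NOD.B10 libraries (log2 fold change 1.00, SE 0.13, adjusted p = 0.00208). Il6ra, Stat3 and Il17ra were also called higher (0.55, 0.50 and 0.33), and Csf2ra, a chain of the GM-CSF receptor, was called lower (-0.39). Socs3 was called in all 15 alternatives, Il6ra in 13, Stat3 in 10, Il17ra in 8 and Csf2ra in 6. When single libraries were left out, Csf2ra and Il17ra kept their calls only without BL/10 replicate 1, and Stat3 only without that library or NOD.B10 replicate 3, while Il6ra lost its call only without NOD.B10 replicate 1. Without the libraries labelled 36 weeks only Socs3 was called. Exons of Stat3 overlap those of Stat5a, so its count is uncertain. Many cells of the spleen make these receptors and STAT3. Csf3, which encodes G-CSF itself, had 1 count in BL/10 replicate 3 and 0 in the other 5 libraries, and Il17a had 0 counts in all 6, so neither was detectable at this depth. Cxcl12, which holds neutrophils in the marrow through its receptor, was the most abundant of the list and was not called (log2 fold change 0.27, SE 0.16, adjusted p = 0.274).

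Genes of some other cell types also moved with the strain. Over all tested genes, 8.22% were called lower and 9.11% higher. Of 9 eosinophil genes, 7 were called lower, with a median log2 fold change of -3.01, and their summed level was 208, 230 and 179 CPM in NOD.B10 and 847, 1505 and 1176 CPM in BL/10, with Prg2 the most abundant. Of 10 mast cell and basophil genes, 8 were called lower, with summed levels of 25.2, 27.6 and 23.3 CPM in NOD.B10 and 50.7, 72.3 and 58.5 CPM in BL/10, although the most abundant, Hgf, is also made by other cells. Both lists showed the same order of strains as the neutrophil genes, without overlap. Of 16 monocyte and macrophage genes, 1 was called lower (6.25%, below the share of all tested genes) and 3 higher. Their summed levels were 4292, 3758 and 3751 CPM in NOD.B10 and 3262, 3572 and 3815 CPM in BL/10, which overlapped. The gene called lower was Ly6c2 of inflammatory monocytes (log2 fold change -3.98, SE 0.28, adjusted p = 0.000145), named after its values were seen and with near copies in its family, and those called higher were Vcam1, the most abundant, Cd163 and Siglec1. Only Cd163 of these 3 was called in all 15 alternatives, while Siglec1 was called in 8 and Vcam1 in 4. With single libraries left out, Siglec1 was called only without NOD.B10 replicate 2 and Vcam1 never. Of 20 T cell genes, 17 were called higher, with summed levels of 1616, 1486 and 2075 CPM in NOD.B10 and 988, 821 and 732 CPM in BL/10 and Cd4 the most abundant. Without the libraries labelled 36 weeks, 10 of the T cell genes were called higher, and 8 eosinophil and 5 mast cell and basophil genes lower. The part of these cell types in the levels of the neutrophil genes was not tested.

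Dividing and blood-forming cells were read from further lists. Beside them stand the 8.22% of all tested genes that edgeR called lower and the 9.11% it called higher. All 20 proliferation genes had a negative log2 fold change, with a median of -0.61. edgeR called 0 of them, and 13 had an unadjusted p under 0.05. DESeq2 called 10 lower, where it called 8.74% of all genes with an adjusted p lower. With limma-voom 8 were called lower, and 3344 of all 15330 tested genes in either direction. Without BL/10 replicate 1, edgeR called 15 of the 20 lower, and without the libraries labelled 36 weeks it called 0 and their median was -0.13. Their summed level was 3478, 5019 and 3375 CPM in NOD.B10 and 4093, 7776 and 5808 CPM in BL/10, which overlapped, and Mki67 was the most abundant. Of 10 genes of blood progenitors, 2 were called lower (Cdk6 and Sox4), with summed levels of 590, 748 and 541 CPM in NOD.B10 and 667, 1010 and 925 CPM in BL/10 and Tal1 the most abundant. Of 16 erythroid genes, 1 was called lower (6.25%), Hba-a2, whose count is uncertain because it has a near-identical copy. The summed erythroid level was 43458, 51649 and 29050 CPM in NOD.B10 and 32101, 63844 and 71583 CPM in BL/10, with Hbb-bs the most abundant, and BL/10 replicate 1 was again the lowest of its strain. Of 10 megakaryocyte genes, 2 were called lower (Gp9 and Treml1), of 15 B cell genes 1 was called higher (Ighm, the most abundant), and of the 8 spleen genes 2 were called lower (Slc40a1 and Cd5l) and 1 higher (Madcam1). Most of these calls changed when single libraries were left out, with 1 to 8 erythroid, 1 to 4 progenitor and 0 to 3 megakaryocyte genes called lower and 0 to 10 B cell genes called higher. The largest erythroid, progenitor and B cell counts were those without BL/10 replicate 1, where 14.0% of all tested genes were called lower and 12.3% higher. Over the 15 alternatives, Cdk6 was called in 15, Sox4 in 10, Ighm in 8, and Gp9 and Treml1 each in 7. Ppbp and Hmox1 were the most abundant of the megakaryocyte and spleen lists. Their part in the neutrophil result was not tested.

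BL/10 replicate 1 also had the highest level of genes of the exocrine pancreas. The summed level of 21 acinar genes was 32.7, 31.7 and 24 CPM in NOD.B10 against 16427, 2476 and 122 CPM in BL/10 replicates 1, 2 and 3, with Cela1 the most abundant. All 17 of them that were tested were called lower in NOD.B10, and limma-voom called 1. With NOD.B10 replicate 1 or 3 left out edgeR called 0 of them and with NOD.B10 replicate 2 left out 1, while at least 17 were called with any 1 BL/10 library left out. The BL/10 library with the highest level of these genes was the one with the lowest level of neutrophil genes. Without it, 26 of the 33 neutrophil genes were called lower (14.0% of all tested genes), and their median log2 fold change was -1.86.

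The 24 neutrophil genes called lower lie on many chromosomes. Camp, Ngp and Ltf lie on chromosome 9, with 570 kb and 22 genes of the table between Camp and Ngp and 596 kb and 29 genes between Ngp and Ltf. S100a8 and S100a9 are 22.6 kb apart on chromosome 3 with no gene of the table between them. Within 500 kb of Fcnb, a distance chosen after the values were seen, 13 other genes were tested. Of these, 5 were called lower and 1 higher, where 8.22% of all tested genes were called lower and 9.11% higher. Those lower were Col5a1, Gm13372, F730016J06Rik, Olfm1 and Cel, and Ralgds was higher, all named after their values were seen. Cel is one of the acinar genes above. The median of the 13 log2 fold changes was -0.38. Within 500 kb of Itgb2l, 8 other genes were tested, of which edgeR called 0, with 0 at an unadjusted p under 0.05, and their median was 0.08. In windows of the same size, 1 of 15 genes was called lower and 2 higher around Ltf. Around Ngp 1 of 18 was called lower and 1 higher, and around Camp 0 of 10 were called. Around Elane 3 of 47 were called lower and 3 higher, and around S100a8 2 of 19 lower and 0 higher. Windows of neighbouring members on chromosome 9 overlap.

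Because many of these genes moved together, their promoters were searched for short motifs of factors known in granulocytes. Windows of 300 bases, from 250 bases before to 50 bases after the start of a gene, were taken from RefSeq (GRCm38.p6), where 27 of the 33 genes matched (Cebpe, Hp, Mmp9, Trem3, Ncf4 and Alox5ap had no window). The C/EBP motif TTGCNNAA (TTNNGCAA on the opposite strand) was found in 10 of the 27 genes (37%) and in 12.2% of all genes with a window. The PU.1 motif GAGGAAGT (ACTTCCTC on the opposite strand) was found in 6 of 27 genes (22.2%) and in 3.69% of all genes, and the TATA motif TATAAA (on the opposite strand TTTATA) in 8 of 27 (29.6%) and 15.7%. Matches of the C/EBP and PU.1 motifs overlapped in 1 window of all 32851, and neither overlapped the TATA motif. Shares were not compared by a test, and a match is a run of letters, not a site shown to be bound. The PU.1 letters were in the windows of Mpo, Elane, Prtn3, Mmp8, S100a8 and Itgb2l, and the C/EBP letters in those of Ms4a3, Gfi1, Ltf, Ngp, Lcn2, Fcnb, Mmp8, Retnlg, S100a9 and Anxa1. The following windows are those of 3 primary granule genes and 4 specific granule genes, read 5′ to 3′ on the strand of the gene with the matching letters in capitals. The first 3 hold the PU.1 letters as GAGGAAGT and Itgb2l holds them as ACTTCCTC, on the opposite strand. The C/EBP letters lie on the opposite strand in Ltf and at both places in Fcnb, and once on each strand in Ngp.
Mpo (chr11:87793534-87793833, + strand): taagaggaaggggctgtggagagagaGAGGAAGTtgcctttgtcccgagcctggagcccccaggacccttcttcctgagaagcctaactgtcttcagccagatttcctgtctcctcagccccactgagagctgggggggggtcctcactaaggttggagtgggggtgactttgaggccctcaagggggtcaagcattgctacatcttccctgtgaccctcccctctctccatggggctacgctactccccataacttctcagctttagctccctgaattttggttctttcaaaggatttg
Elane (chr10:79886062-79886361, + strand): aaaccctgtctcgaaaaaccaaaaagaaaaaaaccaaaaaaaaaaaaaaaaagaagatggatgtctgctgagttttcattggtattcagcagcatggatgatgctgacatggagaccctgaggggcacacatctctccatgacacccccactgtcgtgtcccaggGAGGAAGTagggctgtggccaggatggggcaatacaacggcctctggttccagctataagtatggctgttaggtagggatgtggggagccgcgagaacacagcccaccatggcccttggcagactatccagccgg
Prtn3 (chr10:79879417-79879716, + strand): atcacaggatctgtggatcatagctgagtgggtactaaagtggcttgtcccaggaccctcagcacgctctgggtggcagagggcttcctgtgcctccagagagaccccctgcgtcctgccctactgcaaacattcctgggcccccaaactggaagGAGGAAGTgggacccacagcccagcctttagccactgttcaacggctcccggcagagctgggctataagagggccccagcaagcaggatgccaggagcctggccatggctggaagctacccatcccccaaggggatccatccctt
Ltf (chr9:111019042-111019341, + strand): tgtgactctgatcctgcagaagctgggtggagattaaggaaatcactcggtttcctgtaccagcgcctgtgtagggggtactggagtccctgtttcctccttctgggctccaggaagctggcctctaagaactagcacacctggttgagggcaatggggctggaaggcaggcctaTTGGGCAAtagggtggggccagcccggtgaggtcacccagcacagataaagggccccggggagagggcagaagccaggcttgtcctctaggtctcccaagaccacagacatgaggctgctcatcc
Ngp (chr9:110419558-110419857, + strand): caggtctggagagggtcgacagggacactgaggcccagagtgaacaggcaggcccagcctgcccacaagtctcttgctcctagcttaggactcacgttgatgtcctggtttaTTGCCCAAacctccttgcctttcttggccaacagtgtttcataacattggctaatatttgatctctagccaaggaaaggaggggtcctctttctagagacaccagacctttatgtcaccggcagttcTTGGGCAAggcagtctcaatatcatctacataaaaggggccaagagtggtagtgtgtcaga
Fcnb (chr2:28084829-28085128, - strand): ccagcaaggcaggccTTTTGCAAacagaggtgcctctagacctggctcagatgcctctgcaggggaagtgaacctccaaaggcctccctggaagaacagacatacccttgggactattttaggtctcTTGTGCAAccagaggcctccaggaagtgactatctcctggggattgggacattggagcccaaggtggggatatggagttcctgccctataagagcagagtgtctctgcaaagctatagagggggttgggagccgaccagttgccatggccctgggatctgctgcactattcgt
Itgb2l (chr16:96443565-96443864, - strand): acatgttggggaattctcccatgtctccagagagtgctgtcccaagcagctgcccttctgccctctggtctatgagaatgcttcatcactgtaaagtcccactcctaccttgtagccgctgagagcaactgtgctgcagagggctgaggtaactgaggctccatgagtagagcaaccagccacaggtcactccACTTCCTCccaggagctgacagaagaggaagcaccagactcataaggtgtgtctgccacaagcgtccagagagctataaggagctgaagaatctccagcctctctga

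Of the printed windows, Ngp and Fcnb each held 2 C/EBP matches. The window of Camp, which fell as much as Ltf, held none of the 3 motifs.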

How the data were processed

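Single-end reads from 3 NOD.B10 and 3 BL/10 spleens were deposited as raw counts for each gene. The authors had counted them with featureCounts version 1.5.1 over exons of Ensembl 84 (GRCm38). No option for strand, for multi-mapping reads or for overlapping genes was set. The paper names Tophat2 for mapping, and the submitters' processing notes name HISAT2 version 2.0.5. The deposited table also gives exon length, used for RPKM. Myd88-deficient libraries named in its header were not analysed here.

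Symbols came from GENCODE M21, which matched 47224 of 47729 genes. Counts were analysed in R version 4.3.3 with edgeR version 4.0.16 (filterByExpr, TMM, quasi-likelihood test, Benjamini-Hochberg adjustment), and each SE is the absolute log2 fold change divided by the square root of F. The alternatives, among them DESeq2 version 1.42.0 and limma-voom version 3.58.1, numbered 15. The fitting was tested on simulated counts. No replicate was a repeat of another, since the chi-square between replicates was 13.6 to 83.4 times its degrees of freedom.

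The members and lists were chosen with earlier results of these data known, so no list was tested as a set. Named were all 33 members, the called genes of the wider neutrophil and signal lists (values for at most the 12 largest differences in each direction), Ly6g, Cxcr2, Csf3 and Cebpa, and of each other list the most abundant gene and those with 0 counts in all libraries. Further genes named, and the value of G0s2, fall outside this rule and were chosen after their values were seen. The result of 1 gene that this rule names is not reported here.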

Additional observations from a re-analysis of the deposited data

How the results depend on the processing

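Of the 24 neutrophil genes called lower in NOD.B10, 16 were called in all 15 alternatives. The other 8 (Mpo, Elane, Prtn3, Ctsg, Ms4a3, Mmp25, Retnlg and Anxa1) kept their direction but lost the call in at least 1. All 24 kept the call with RLE size factors, upper-quartile normalization, without pancreas, erythroid and immunoglobulin genes, with either other filter on low counts, with DESeq2 and with limma-voom. With 1 library left out at a time, the number of the 33 genes called was between 17 and 26, that of the wider neutrophil genes between 10 and 17, the median log2 fold change of the early genes between -2.12 and -1.39, and that of the late genes between -1.68 and -1.32. The number of all genes called was 2656 with all libraries and between 1269 (without NOD.B10 replicate 1) and 4107 (without BL/10 replicate 1) with 1 left out. It was 1395 without NOD.B10 replicate 3, 1580 without BL/10 replicate 2 and 1744 without BL/10 replicate 3.

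Without the libraries labelled 36 weeks, 1001 genes were called, among them 16 of the 33, all lower, and 4 of the wider neutrophil list, 3 lower and 1 higher (Tcn2, named after its value was seen), and the medians were -0.80 for early and -0.89 for late genes. That comparison rests on 1 BL/10 library, replicate 1, which had the highest level of pancreas genes. Neither the part of age nor that of the pancreas genes was tested. Csf3r, not called in any alternative, changed sign with upper-quartile normalization (0.02), limma-voom (0.05), without the libraries labelled 36 weeks (0.20) and with 1 library left out, where its log2 fold change was between -0.28 and 0.20 (0.02 without NOD.B10 replicate 2, 0.20 without NOD.B10 replicate 3 and 0.11 without BL/10 replicate 2). The cause was not tested.

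With the replicate number as a block, 2889 genes were called, among them the same 24 neutrophil genes. The block moved other lists, with 17 of 20 proliferation genes called lower where 0 were without it, 5 erythroid genes where 1 was, and 0 megakaryocyte and B cell genes where 2 and 1 were. The numbers do not pair the samples, since deviations of samples with the same number correlated at 0.0316, 0.172 and -0.0837 across genes.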
